A study of Equus caballus with 26 samples.

Results

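The 10 genes described here carry cytokine signals through the JAK-STAT route: the feedback inhibitors *SOCS1*, *SOCS2*, *SOCS3* and *CISH*, the transcription factors *STAT3*, *STAT4*, *STAT5B* and *STAT6*, and the Janus kinases *JAK2* and *JAK3*. They were listed by name, with no threshold on a measured value, although earlier results of these data were known. Each was sought on the array by the gene name given with a probe, then by the name in the probe's description, in the study's additional files or in a RefSeq gene table. No probe carried the name of *SOCS1* or *SOCS2*, which are therefore not analysed here. The other 8 of the 10 genes were read by 20 probes, among 24415 gene names on the array. The comparison of interest was whether the inhibitors moved with or against the STATs and kinases after a long race.

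A cytokine that binds its receptor brings together the JAKs attached to it, which phosphorylate the receptor and the STATs that dock there, and the STATs then enter the nucleus and switch on target genes. *SOCS3* and *CISH* are such targets, and their proteins bind back to the receptor or its kinases and shut the signal off. In blood leucocytes STAT3 serves IL-6, IL-10 and G-CSF, STAT4 serves IL-12 in T and NK cells, STAT6 serves IL-4 and IL-13, STAT5B serves IL-2 and growth factors, and JAK3 works with the receptor chain shared by IL-2 and its relatives.

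RNA of whole blood from Arabian or half-breed endurance horses was hybridised to 26 equine 1-colour expression arrays, each sample drawn at rest before (T0) or directly after (T1) a ride of 160 km. The arrays analysed here are part of the larger sets of horses that the methods describe. Those of the experimental set, labelled training, came from 3 geldings sampled at both times. Those of the validation set came from 7 horses at T0 only (3 females and 4 geldings) and 13 other horses at T1 only (3 females and 10 geldings). The experimental comparison was therefore within horses, whereas the validation comparison was between horses. According to the methods, all T1 horses had finished, whereas most T0 horses of the full validation set were later eliminated. That difference cannot be told apart from the effect of the race in that set.

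Levels are given as the log2 of the array's processed signal minus the 75th percentile of that array, so a difference of 1 is a doubling and a level of 0 is the 75th percentile. Levels of different probes are not compared with each other, since probes differ in brightness for the same amount of RNA. All 8 genes were read well above background on all 26 arrays. Between 60.2% and 75.3% of all probes were well above background on an array. All 431 saturated spots lay on the T1 array of validation horse 34, the only array read in a single scanner pass. The array of validation horse 47 lay farthest from the others of the validation T0 group, with a root mean square deviation of 0.79 against 0.50 to 0.66 for the other 6. Similar values were found in other groups, with 0.80 for validation horse 21 at T1 and 0.78 for experimental horses 32 and 41 at T0. Each array was set against the mean of the others of its group. That mean rests on fewer arrays in the experimental groups, which by itself enlarges the deviation there. Results are given with and without the array of horse 47 where it sets them apart.

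*SOCS3* was the member that rose most in both sets. Its product blocks signalling by the gp130 and G-CSF receptors. It was read by a pair of probes of very different brightness. Positions are those of the array's own annotation, whose file headers name the build EquCab1, and the bases are those deposited with the arrays. The dim probe, A_69_P000021, is annotated to the *SOCS3* transcript at chr11:2992064-2992123. The bright probe, Oligo-335, is a custom probe of 50 bases with no annotated position and only topic words as its description. Both are shown because the *SOCS3* result turns on what they read, the bright probe by its opening 30 bases. The capitals mark the bases that it shares, within this stretch, with a probe of a sequence tag.
SOCS3, A_69_P000021: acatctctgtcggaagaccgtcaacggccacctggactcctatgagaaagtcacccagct
SOCS3, Oligo-335: aggctgtTAGGAGATGCTTGAAGAACTCAA

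Oligo-335 shared 43, 42 and 41 of its 50 bases, in the same orientation, with 3 probes of the expressed sequence tag CX602140. Those probes are annotated between chr11:2993657-2993716 and chr11:2993659-2993718. The shared bases place Oligo-335 at chr11:2993650-2993699, with 1527 bases from the end of the dim probe to its start, in the same orientation. Of the 20 probes of the members it was the only one with a run of 20 or more bases in common, on either strand, with a probe of another gene name. The array annotation used here does not say whether this stretch belongs to the *SOCS3* transcript.

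By the rule for genes with several probes, the brightest over all arrays was read, which for *SOCS3* was Oligo-335. In the experimental set its level was 2.00, 1.86 and 2.24 at T0 in horses 2, 32 and 41. At T1 it was 4.51, 4.42 and 4.16 in the same horses. The lowest T1 level lay above the highest T0 level, and each horse rose by between 1.92 and 2.56. *SOCS3* was over-expressed at T1 relative to T0 by 2.33 on the log2 scale (SE 0.33, 5.01-fold, limma with the horse as a block, adjusted p = 0.00477). The call was lost with no filter on background (adjusted p = 0.0699). Among the validation horses the lowest, median and highest levels were 1.52, 2.14 and 3.73 at T0 and 3.31, 3.99 and 5.79 at T1. The groups overlapped because of horse 47, the highest at T0, and 11 of the 13 T1 horses lay above it. The rise there was 1.76 (SE 0.29, 3.38-fold, 95% interval 2.21 to 5.16, adjusted p = 9.42e-05), and it was 1.98 (SE 0.28) without horse 47. The highest T1 level belonged to horse 62, and the rise was 1.62 (SE 0.25) without it. The next highest, horses 4 and 55 (4.74 and 4.66), were scanned on the same day as horse 62, a day with no T0 array. With scan day as a block the rise was 1.68 (SE 0.28, adjusted p = 0.000393).

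The dim probe moved in the same direction. Its level at T0 was -4.02, -4.01 and -4.05 in experimental horses 2, 32 and 41, and at T1 it was -1.88, -2.32 and -2.27. Fitted among the 30315 probes tested, the rise was 1.87 (SE 0.30, adjusted p = 0.00919). In the validation set it went from a lowest, median and highest of -4.42, -4.10 and -2.61 to -3.29, -2.60 and -1.46, a rise of 1.34 (SE 0.23, adjusted p = 9.53e-05). The 3 tag probes rose by 2.29 to 2.37 in the experimental set and by 1.70 to 1.75 in the validation set. Over the 26 arrays, which share the race effect, the level of Oligo-335 correlated with that of the dim probe at r = 0.95 and with the tag probes at r = 0.995 to 0.997.

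**Figure D1:**
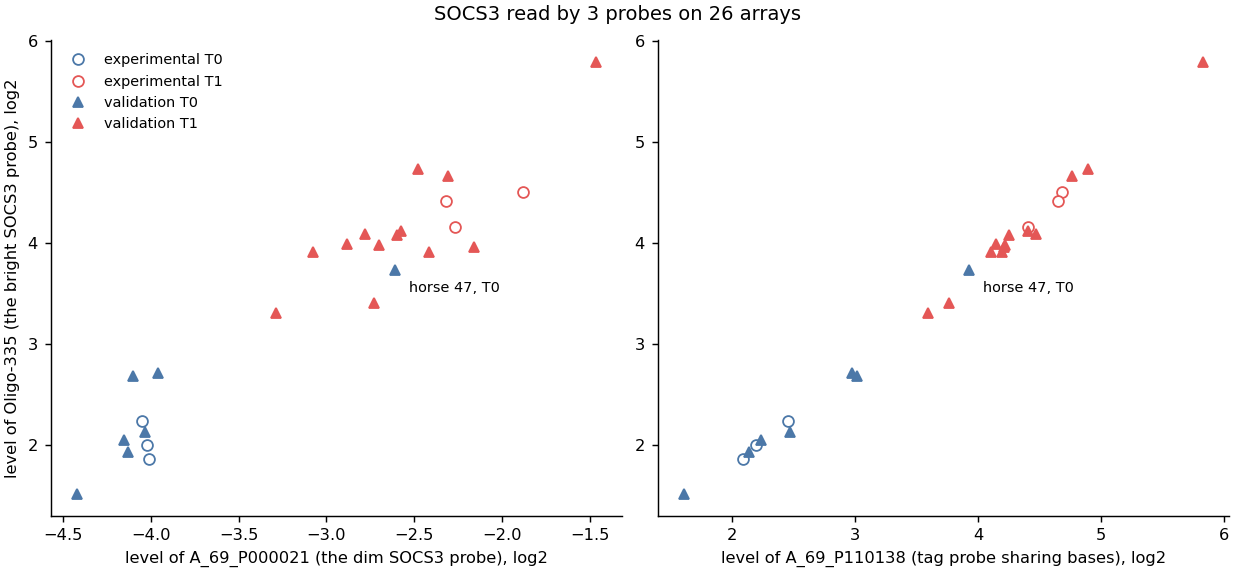
Level of the bright *SOCS3* probe (y, log2 scale as in the text) against that of the dim *SOCS3* probe (left, x) and of a tag probe that shares its bases (right, x), 1 point per array, open circles for the experimental and triangles for the validation set, blue for T0 and red for T1. The T1 arrays lie to the upper right in both panels, and the T0 array of validation horse 47 lies among them.

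*CISH*, the other measured inhibitor, did not follow. It encodes an SH2 protein that is switched on by STAT5 and dampens IL-2 and related receptors, and the files name it LOC100061510. Its probe is shown because it is the only reading of this gene, annotated at chr16:36697086-36697145.
CISH, A_69_P055816: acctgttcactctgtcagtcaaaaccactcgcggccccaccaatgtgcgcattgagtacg

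At T0 its level was -0.70, -0.58 and -1.78 in experimental horses 2, 32 and 41, and at T1 it was -1.36, -1.32 and -1.28. It was lower after the race in 2 horses and higher in horse 41, and all 3 T1 levels lay within the T0 range. The estimate was -0.30 (SE 0.36, 95% interval -1.12 to 0.52, adjusted p = 0.614). The lowest, median and highest levels in the validation set were -1.82, -1.54 and -1.07 at T0 and -2.40, -1.67 and -1.28 at T1. The groups overlapped widely, with 5 of the 13 T1 horses below the lowest T0 horse. The estimate was -0.27 (SE 0.16, 95% interval -0.61 to 0.06, adjusted p = 0.180). Both intervals exclude a rise of the size seen for *SOCS3*.

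**Figure D2:**
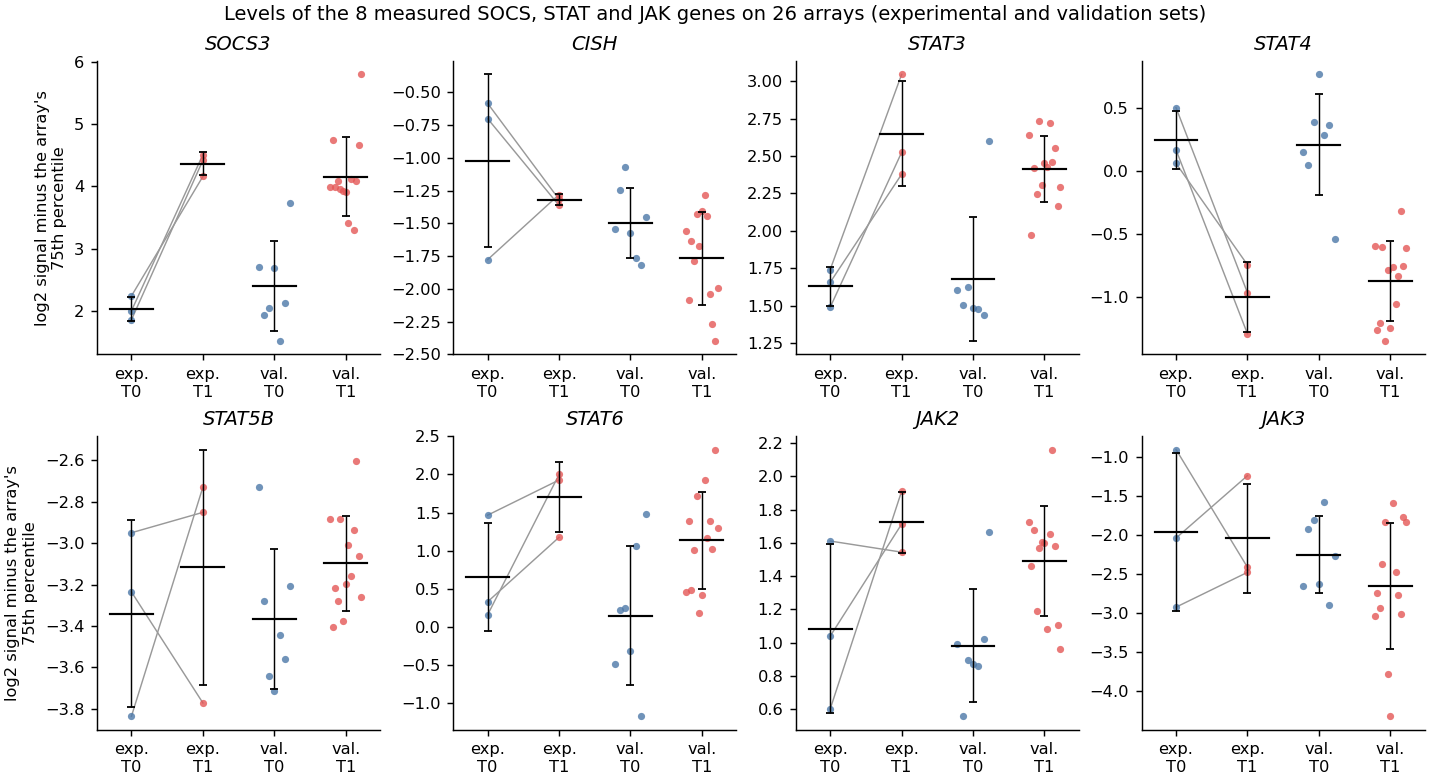
Level of each measured gene (y, log2 scale as in the text, own range per panel) on each array, by set (exp., experimental; val., validation) and time, with grey lines joining the 2 arrays of a horse and black bars for the mean and SD of a group (3, 3, 7 and 13 arrays). *SOCS3* and *STAT3* stand higher at T1 and *STAT4* lower, and among the validation T0 arrays horse 47 is the highest for the former pair and the lowest for *STAT4*.

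*STAT4* was the member that fell. It carries IL-12 signals and is known from T and NK cells. A pair of probes read it, and both are shown since they share no run of 20 bases and gave the same direction. The brighter, Oligo-340, has no annotated position and is given by its opening 30 bases. The other is annotated on the minus strand at chr18:55886173-55886605, a span of 433 bases for a probe of 60.
STAT4, Oligo-340: cactcccaattgggtgtgttgtgactgaaa
STAT4, A_69_P042701: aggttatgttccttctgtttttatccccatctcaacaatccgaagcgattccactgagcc

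The level of Oligo-340 at T0 was 0.50, 0.17 and 0.06 in experimental horses 2, 32 and 41, and at T1 it was -0.97, -1.29 and -0.75. The groups did not overlap, and each horse fell. *STAT4* was under-expressed at T1 by a 2.37-fold lower level, or -1.24 on the log2 scale (SE 0.33, adjusted p = 0.0436). Over the validation horses, the lowest, median and highest levels were -0.54, 0.28 and 0.76 at T0 and -1.35, -0.79 and -0.32 at T1. Horse 47 held the lowest T0 level, and 12 of the 13 T1 horses lay below it. The change was -1.08 (SE 0.17, 2.12-fold lower, adjusted p = 4.86e-05). The dimmer probe gave -1.58 (SE 0.43, adjusted p = 0.0447) and -1.10 (SE 0.23, adjusted p = 0.00066) in the 2 sets. The call in the experimental set was lost without horse 2 (-1.13, adjusted p = 0.168), without horse 32 (-1.14, adjusted p = 0.146) and with no filter on background (adjusted p = 0.173).

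*STAT3*, which carries IL-6, IL-10 and G-CSF signals, had an estimate above 0 on each of its 9 probes in both sets. The brightest, A_69_P002316, lies at chr11:19417465-19417524 under the gene name STAT-3, and is given by its opening 30 bases. The custom probe Oligo-339, under the name STAT3, is shown beside it as the only probe of that name. Another 5 of the 9 start 1 base apart and share 56 to 59 of their 60 bases, so they are close to 1 reading.
STAT3, A_69_P002316: gatatgcttttatctaaatgcaagtaagaa
STAT3, Oligo-339: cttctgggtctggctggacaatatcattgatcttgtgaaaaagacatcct

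The brightest probe read 1.49, 1.74 and 1.66 at T0 and 2.52, 3.05 and 2.38 at T1 in experimental horses 2, 32 and 41. The groups did not overlap on this probe. They overlapped on several others, such as Oligo-339, where horse 32 read -0.50 at T0 and horse 41 read -0.80 at T1. On the brightest probe the difference of 1.02 (SE 0.32, 2.03-fold, adjusted p = 0.0719) did not pass the threshold of 0.05. For the validation horses the lowest, median and highest levels went from 1.44, 1.503 and 2.60 to 1.97, 2.42 and 2.74. Horse 47 alone held the upper end of the T0 range, 0.98 above the next T0 horse, and only 3 of the 13 T1 horses lay above it. *STAT3* was over-expressed at T1 there by 0.74 (SE 0.15, 1.67-fold, adjusted p = 0.000532), and by 0.89 (SE 0.12) without horse 47. Over the 9 probes the difference ranged from 0.76 to 1.12 in the experimental set, where A_69_P002317 alone passed (adjusted p = 0.045). It ranged from 0.74 to 0.97 in the validation set, where all but A_69_P102401 (adjusted p = 0.108) passed.

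*STAT6*, the mediator of IL-4 and IL-13, was read at 0.16, 1.47 and 0.33 at T0 and at 2.00, 1.93 and 1.18 at T1 in experimental horses 2, 32 and 41. All 3 horses were higher at T1, by between 0.46 and 1.84. The estimate of 1.05 (SE 0.37, 2.07-fold, adjusted p = 0.0935) did not pass. The validation levels, lowest, median and highest, were -1.17, 0.22 and 1.48 at T0 and 0.19, 1.17 and 2.33 at T1. The groups overlapped between 0.19 and 1.48, and 12 of the 13 T1 horses lay above the T0 median. It was over-expressed there by 0.99 (SE 0.33, 1.99-fold, 95% interval 1.24 to 3.17, adjusted p = 0.0172). This call was lost without validation horse 40, the lowest at T0 (0.77, adjusted p = 0.054), and with scan day as a block (0.70, adjusted p = 0.147). Its other probe, Oligo-341, which shares no run of 20 bases with the brighter, rose by 1.16 (SE 0.29, adjusted p = 0.0025) in the validation set. In the experimental set its estimate of 0.91 (SE 0.31, adjusted p = 0.0828) did not pass.
STAT6, Oligo-341: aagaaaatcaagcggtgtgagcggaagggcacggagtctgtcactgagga

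*STAT5B* sits 88759 bases from the *STAT3* probe on chromosome 11 by the array annotation, and its probe is named LOC100052954. Its processed signal ran from 36.7 to 133 over the 26 arrays. At T0 it read -3.84, -2.95 and -3.24 and at T1 -2.73, -2.85 and -3.77 in experimental horses 2, 32 and 41. It was higher in 2 horses and lower in horse 41, with an estimate of 0.22 (SE 0.38, 95% interval -0.64 to 1.09, adjusted p = 0.729). In the validation set it went from a lowest, median and highest of -3.71, -3.45 and -2.73 to -3.41, -3.16 and -2.61. All 13 T1 horses lay above the T0 median, but only 1 above the highest T0 horse. The estimate of 0.27 (SE 0.14, adjusted p = 0.124) did not pass.

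*JAK2*, the kinase of the receptors for erythropoietin, GM-CSF and interferon gamma, is named LOC100051487 in the files and was read by a pair of neighbouring probes on chromosome 23. The brighter read 1.04, 0.60 and 1.61 at T0 and 1.71, 1.91 and 1.54 at T1 in experimental horses 2, 32 and 41. Horses 2 and 32 were higher at T1 and horse 41 was slightly lower, and the estimate of 0.64 (SE 0.36, adjusted p = 0.269) did not pass. Among the validation horses the lowest, median and highest levels were 0.56, 0.90 and 1.67 at T0 and 0.96, 1.58 and 2.16 at T1. Horse 47 was again the highest at T0, and 3 of the 13 T1 horses lay above it. *JAK2* was over-expressed there by 0.51 (SE 0.16, 1.42-fold, 95% interval 1.13 to 1.80, adjusted p = 0.0144). The other probe rose there by 0.55 (SE 0.14, adjusted p = 0.00325), and its estimate of 0.50 (SE 0.34, adjusted p = 0.341) in the experimental set did not pass.

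*JAK3* is named only in the description of its probe (ENSECAT00000019899), which has no annotated position. The probe is shown as the only reading of the gene.
JAK3, A_69_P028021: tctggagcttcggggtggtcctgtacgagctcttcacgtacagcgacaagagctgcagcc

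It read -2.04, -0.91 and -2.92 at T0 and -1.24, -2.41 and -2.48 at T1 in experimental horses 2, 32 and 41. Horse 32 changed by -1.51, and the other two were higher at T1. The estimate was -0.09 (SE 0.46, 95% interval -1.12 to 0.94, adjusted p = 0.917). The lowest, median and highest levels in the validation set were -2.90, -2.27 and -1.58 at T0 and -4.32, -2.74 and -1.59 at T1. The T0 range lay within the T1 range apart from its upper end. The lowest T1 level was that of horse 21, with a processed signal of 21.8. The estimate was -0.40 (SE 0.32, adjusted p = 0.325), and -0.93 (SE 0.33, adjusted p = 0.0333) with scan day as a block.

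**Figure D3:**
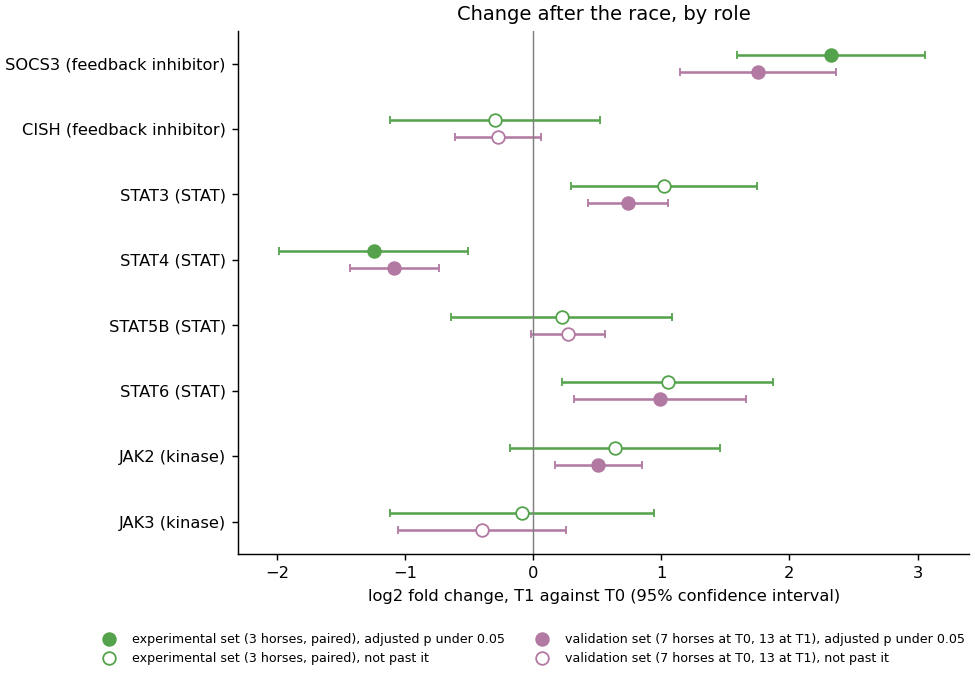
Log2 fold change at T1 against T0 (x) with its 95% confidence interval for each measured gene (y, with its role), in the experimental set (green) and the validation set (purple), filled where the adjusted p is under 0.05. *SOCS3* lies farthest to the right and *STAT4* farthest to the left in both sets, and the pairs of intervals overlap for all 8 genes.

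By role, 1 of the 2 measured inhibitors rose in each set and the other did not pass. Of the 6 STATs and kinases, 1 fell and none rose in the experimental set, and 3 rose and 1 fell in the validation set. With scan day as a block in the validation set the tally differed: *STAT3* and *JAK2* rose, *STAT4* and *JAK3* fell, and *STAT6* did not pass. In all, 2 of 8 measured members passed in the experimental set, where 10.6% of the 17439 gene names tested did (1 rise, against 6.42% of gene names that rose, and 1 fall, against 4.21%). There 5 of the 8 estimates were positive, with a median of 0.43 against 0.03 over all gene names. In the validation set 5 of 8 passed, where 44.2% of 17342 gene names did (4 rises, against 20.3%, and 1 fall, against 23.9%), and the median estimate was 0.39 against -0.07. With the arrays of horse 47 or horse 34 left out, the same 5 members passed. The change had 1 sign in all 3 experimental horses for 4 members (*SOCS3*, *STAT3*, *STAT4* and *STAT6*) of 8, against 51.5% of gene names. No member had validation groups free of overlap, where 2.21% of gene names did. Of all calls in the experimental set 60.4% were rises, against 48.2%, 49.7% and 47.7% with background correction and quantile normalization, with quantile normalization alone and in the deposited processed values.

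The rise of *SOCS3* was larger than the change of each of the 6 STATs and kinases in all 3 experimental horses, by 0.66, 1.25 and 1.07 over the highest of them in horses 2, 32 and 41. With the annotated dim probe, whose signal at T0 was low and which rose by 2.14, 1.69 and 1.79, these gaps were 0.30, 0.38 and 0.94. The highest gene was *STAT6* in horses 2 and 41 and *JAK2* in horse 32. The mean change of the 6 was 0.66, 0.03 and 0.10 in these horses. These are differences between changes of different probes and were not tested.

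For no member did the T1 against T0 change pass the test of a difference between the sets. The estimates of the difference (validation minus experimental) ran from -0.57 for *SOCS3* (95% interval -1.72 to 0.58) to 0.16 for *STAT4* (-0.52 to 0.85), and none of the 8 passed even before adjustment. The intervals still allow differences of more than 1 on the log2 scale for *SOCS3*, *STAT6* and *JAK3*. Over all 17774 gene names tested by limma, 0 passed, which is 0% of them, and 99 had an unadjusted p under 0.05. Comparing the sets at the same time also gave 0 calls at T0 and 0 at T1 (210 and 579 gene names at an unadjusted p under 0.05, none of them a member).

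Arrays scanned on the same day could be compared within 2 days for the experimental set and 5 days for the validation set, with 1 to 4 arrays per time and day. All of these set different horses against each other, in the experimental set too. *SOCS3* was higher at T1 on all 7 of these occasions, by 2.15 to 2.65 in the experimental and 1.08 to 2.39 in the validation set. On the probes read, *STAT3* and *JAK2* were also higher on all of them, and *STAT4* was lower on all of them, with values of -1.25 to -1.13 and -1.64 to -0.54. For *STAT3* this did not hold on every probe. Validation horses 29 (T0) and 21 (T1), scanned on 1 day, read -1.23 and -1.40 on Oligo-339 and 0.36 and -0.31 on A_69_P004101. On A_69_P002317 they read 1.54 and 2.29. *STAT6* was higher on both days of the experimental set but lower on 2 of the 5 days of the validation set, with values between -0.66 and 2.27. *JAK3* was lower on 4 of those 5 days, with values between -2.74 and 0.51. *CISH* was lower on both days of the experimental set and on 3 of the 5 days of the validation set.

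**Figure D4:**
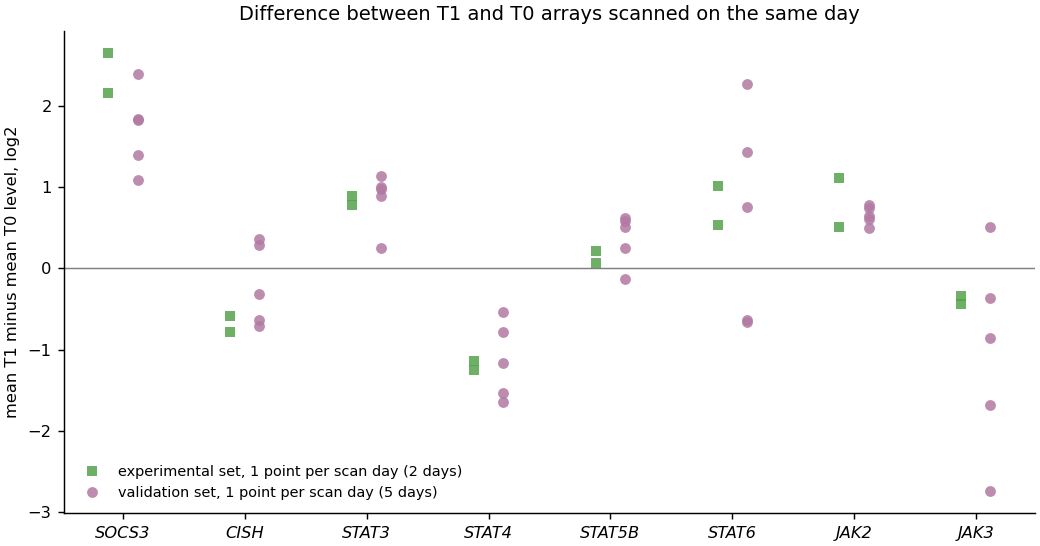
Mean T1 minus mean T0 level (y, log2) of each measured gene over arrays scanned on the same day, 1 point per day, green squares for 2 days of the experimental set and purple circles for 5 days of the validation set. On the probes drawn, *SOCS3*, *STAT3*, *JAK2* and *STAT4* keep to their side of 0 on every day, and *STAT6*, *JAK3*, *CISH* and *STAT5B* have points of the validation set on both sides.

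Markers of blood cell types moved in the same comparisons. Their counts, here and in the next paragraph, stand beside the shares over all gene names. Of these, 6.42% rose and 4.21% fell in the experimental set, and 20.3% rose and 23.9% fell in the validation set. The samples read as whole blood: the 9 neutrophil, 7 monocyte, 8 B cell and 7 NK cell markers with a probe all passed the background filter in both sets, as did 12 and 13 of the 13 T cell markers, 4 of 6 erythroid and 3 of 5 platelet markers. In whole blood a lower share of cells of a type and less RNA per cell cannot be told apart. Of 9 neutrophil markers tested, 6 rose and 0 fell in the experimental set and 8 rose and 0 fell in the validation set. Their summed level (log2 of the summed linear levels) ran from 6.55 to 9.13 at T0 and 9.73 to 10.0 at T1 in the experimental set, and from 7.28 to 9.76 and 9.05 to 11.1 in the validation set. Of the T cell markers, 8 of 12 fell in the experimental set and 12 of 13 in the validation set, with none rising. Their summed level ran from 5.22 to 5.91 at T0 and 4.12 to 4.28 at T1, and from 4.51 to 5.79 and 3.75 to 4.68 in the validation set.

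Of 7 NK cell markers, 5 and 4 fell in the 2 sets, and *NCR1* alone rose, by 1.34 in the validation set. Of 8 B cell markers, 3 and 7 fell and none rose, and of 7 monocyte markers 4 rose and none fell in each set. Of the 4 basophil and eosinophil markers tested, 3 fell in each set, among them *MS4A2* with -5.03 and -4.54. The 3 platelet markers tested did not pass in either set, and of 4 erythroid markers *HBB* alone rose in each. The T1 groups in which *SOCS3* was higher and *STAT4* lower were thus those with higher neutrophil and lower T and NK cell markers. The part of these cells in the results was not tested.

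Of the other inhibitors of the route, 14 of 15 listed genes were tested. In the experimental set 2 rose, 0 fell and 12 did not pass, with a median of 0.47, where 6.42% of all gene names rose and 4.21% fell. The validation set gave 5 that rose and 0 that fell, with a median of 0.19, where 20.3% of all gene names rose and 23.9% fell. *SOCS6* rose by 1.32 (adjusted p = 0.0349) and 1.003 (adjusted p = 0.000266) in the 2 sets. *PTPN1*, a phosphatase that acts on JAK2 and TYK2, rose by 1.72 (adjusted p = 0.0182) and 1.12 (adjusted p = 0.00125). *CBL*, a ubiquitin ligase, and *PIAS3*, an inhibitor of STAT3, rose by 1.06 and 1.01 in the validation set (adjusted p = 8.23e-05 and 0.000116). *SOCS4* and *SOCS5* did not pass in either set.

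Of the other kinases, *JAK1* changed by 0.08 (SE 0.40, adjusted p = 0.915) in the experimental set and rose by 0.54 (SE 0.18, adjusted p = 0.0187) among the validation horses. *TYK2* changed by 0.76 (SE 0.31, adjusted p = 0.141) and rose by 0.49 (SE 0.16, adjusted p = 0.0159). *STAT2* and *STAT5A* did not pass in either set.

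Among the cytokine receptors, 27 were tested in the experimental set, where 2 rose and 1 fell (6.42% and 4.21% over all gene names). In the validation set 25 were tested, where 9 rose and 8 fell (20.3% and 23.9% over all gene names). The medians were 0.16 and -0.06 in the 2 sets. *IL4R*, the receptor upstream of STAT6, rose by 1.72 (adjusted p = 0.0142) and 1.38 (adjusted p = 1.69e-05). *CSF2RB*, the shared chain of the IL-3, IL-5 and GM-CSF receptors, rose by 1.80 and 1.38. *IFNGR1* rose by 1.35 in the validation set (adjusted p = 0.0259). *IL2RA*, the high-affinity chain for IL-2, changed by -2.08 (adjusted p = 0.00938) and -1.46 (adjusted p = 0.000144). *IL21R* and *IL12RB1*, a chain of the receptor upstream of STAT4, fell by 1.73 and 1.10 in the validation set (adjusted p = 0.000478 and 4.16e-05).

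Of 23 cytokine ligands with a probe, only 12 passed the background filter in each set. In the experimental set 1 rose and 1 fell, where 6.42% of all gene names rose and 4.21% fell. In the validation set 1 rose and 4 fell, where 20.3% of all gene names rose and 23.9% fell. *IL10*, an inhibitory cytokine that signals through STAT3, was the only ligand that rose, by 1.26 (SE 0.33, adjusted p = 0.042) and 1.01 (SE 0.25, adjusted p = 0.00264). *IL23A* changed by -1.52 and -1.39 and was the only one that fell in the experimental set. In the validation set *IL4* fell by 1.76, *OSM* by 0.97 and *IL13* by 0.44, and the median over the 12 ligands was -0.07 and -0.37 in the 2 sets. *IL6* was tested and did not pass (0.38 and 0.20, adjusted p = 0.5 and 0.517), and *IFNG* and *IL12B* were well above background on none of the validation arrays.

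Of 16 STAT target genes other than the members, 7 rose in the experimental set, where 6.42% of all gene names did, and 9 in the validation set, where 20.3% did. In the 2 sets 0 and 4 of them fell, against 4.21% and 23.9% of all gene names. Their median change was 0.99 and 1.04, against 0.03 and -0.07 over all gene names. *FOS* rose by 3.16 (SE 0.32, adjusted p = 0.0015) and 2.47 (SE 0.43), *CEBPB*, a regulator of granulocyte formation, by 2.52 and 2.37, and *MCL1*, a survival factor of neutrophils, by 2.56 and 2.32. *BCL3* rose by 2.17 and 1.80, *PIM1* by 2.08 and 1.78, *BCL6* by 2.01 and 1.88 and *IL18R1* by 1.46 and 1.54. The 4 that fell in the validation set were *GATA3* (-1.28) and *TBX21* (-0.86), which are regulators of helper T cells, *CCND2* (-0.86) and *MYC* (-0.40). Several of these targets are also induced by other signals.

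**Figure D5:**
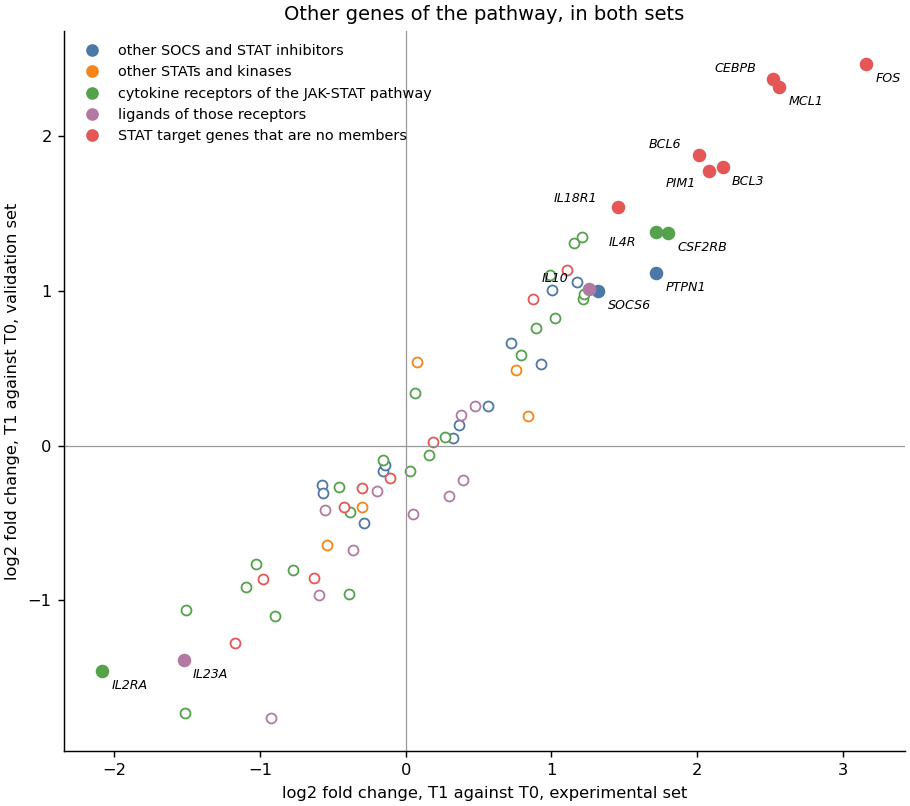
Log2 fold change at T1 against T0 in the experimental set (x) and the validation set (y) of 72 other genes of the pathway tested in both sets, coloured by list and filled and named where the adjusted p in the experimental set is under 0.05. The named STAT target genes lie at the upper right with rises above 1 in both sets, and *IL2RA* and *IL23A* at the lower left.

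With the mean of each group taken out, the gene names most like each member differed from member to member. They are the highest of 11654 or 11655 gene names compared, so their correlations are high in part by that choice. These correlations over 26 arrays from 23 horses describe arrays that share slides and scan days, and they hold for the probe read. The other probe of a gene correlated with it at r = 0.41 for *STAT6*, 0.55 for *STAT4*, 0.85 for *SOCS3* and 0.94 for *JAK2*. For *STAT3* the other probes ranged from r = 0.37 to 0.80. The gene names most like *SOCS3* were both entries for *BCL3* (r = 0.89 and 0.89) and *JUNB* (r = 0.86). Those most like *STAT3* were *DNAJC5*, *KDM6B* and *ZEB1* (r = 0.79 to 0.81), those most like *STAT4* were *SLF1*, *HELQ* and *PSPC1* (r = 0.76 to 0.77), and those most like *JAK2* were *FAM160B1*, *KIAA2026* and *CLOCK* (r = 0.83 to 0.86). For *STAT5B* they were *ATG2B*, *KMT5A* and *FBXL20* (r = 0.83 to 0.89), and for *CISH* they were *DHCR7*, *CINP* and *CD1B* (r = 0.78 to 0.83).

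*STAT6* was most like *TTC39A*, *RASSF2* and *PTPN6* (r = 0.94 for all 3), and *JAK3* most like *CCT7*, *VPS26C* and *ACSF3* (r = 0.96 for all 3). Among the pairs of members the highest such correlation was that of *STAT6* with *JAK3* (r = 0.74), the pair whose differences varied most between scan days. *STAT3* went with *JAK2* at r = 0.56 and against *STAT4* at r = -0.51, and *JAK2* went against *JAK3* at r = -0.54. *SOCS3* correlated with no other member beyond 0.29 in size, which was its value with *CISH* (r = -0.29).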

How the data were processed

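Whole blood RNA of 26 samples from 23 horses was measured on Agilent 1-colour arrays. The authors deposited scanner files holding the processed signal intensity of each spot, after the scanner software's background subtraction, and a series table of log2 values of their own normalization. Columns of comparisons made by the authors were not used. The members and gene lists were chosen with earlier results of these data known.

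The level was log2 of the processed signal minus the array's 75th percentile. Control spots and 386 outlier spots were left out, spots of 1 probe were averaged, and the brightest probe stood for a gene name, and the brightest gene name for a symbol. T1 was compared with T0 with limma 3.58.1 in R 4.3.3, with the horse as a fixed block in the experimental set and no block in the validation set. Gene names had to be well above background on 3 of 6 or 7 of 20 arrays. The difference between the sets was fitted jointly, horses entering as a random effect (7 of 26 arrays, consensus correlation -0.06). P-values were adjusted by Benjamini-Hochberg over all gene names tested, and those of single probes over all probes, with a threshold of 0.05. The code was tested on simulated data.

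Pairing came from the animal number, which marks the same horse. The deviations of a horse's 2 arrays from their group means correlated at -0.01, 0.21 and 0.19 over 17439 gene names. There were 18 slides and 8 scan days. The number of arrays limits the precision.

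All 10 genes were to be named, each with its value on every experimental array and its range in the validation set. Of each pathway list, genes that passed in the experimental set and the 3 largest changes each way in the validation set were named, and for each member the 3 genes most like it. The alternatives covered normalization, probe choice, filters, blocks, sex, scan day, slide and leaving out arrays. Leaving out single validation arrays and reading the tag probes were added after seeing the data. A result of the pathway lists is not reported here.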

Additional observations from a re-analysis of the deposited data

Results flagged for a closer look

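The array of validation horse 47 at T0 stood apart from the other 6 T0 arrays of its set in 3 of the 9 readings checked for a lone sample, where chance would set off about 1 in 20 groups. The gap to the nearest horse was taken as a share of the range of the group. It was 0.841 for the *STAT3* probe A_69_P002316, 0.581 for the *JAK2* probe A_69_P026932 and 0.744 for the dim *SOCS3* probe A_69_P000021. The 3 readings come from the same array and are not independent. Its levels on these probes were 2.60 for *STAT3* against 1.62 for the next horse, and 1.67 for *JAK2* against 1.02. The bright *SOCS3* probe, with a share of 0.461, did not set this array apart. The other probes of *STAT3* and *JAK2* were not checked, so the result holds only for the probes named. On the other *JAK2* probe this array read 1.46, against 0.93 for the next horse and 0.50 for the lowest. On the *STAT3* probe Oligo-339 it read -0.34, against -1.23 and -2.39. On A_69_P102401 it read 0.74, against -0.03 and -2.43, and on A_69_P002317 2.61, against 1.66 and 0.95. On these *STAT3* probes the gap was a smaller part of the range than on A_69_P002316.

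The same array held the highest *SOCS3* level of its group (3.73 against 2.71 for the next horse) and the lowest *STAT4* level (-0.54 against 0.04). Its summed level of neutrophil markers was the highest of the 7 T0 arrays (9.76), as were those of monocyte (8.34) and erythroid markers (8.39). Its summed levels of T cell (4.51), NK cell (2.15) and basophil and eosinophil markers (2.08) were the lowest. The part of these cells in its levels was not tested. Without it the change was 1.98 for *SOCS3*, 0.89 for *STAT3*, -1.21 for *STAT4*, 1.21 for *STAT6* and 0.62 for *JAK2*, and all 5 passed.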

How the results depend on the processing

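Of the 8 members, 2 passed in the experimental set (1855 gene names of all), 3 with normexp and quantile normalization, in the deposited values and in 1 fit of all 26 arrays (2934 gene names), 0 with no filter (65 gene names) and 4 when each array had to be well above background (2918 gene names). Leaving out a horse gave 1 to 2 members, with 289 gene names without horse 2, 680 without horse 32 and 2815 without horse 41. *STAT4* lost its call without horse 2 or 32 and with no filter (adjusted p = 0.173), and *SOCS3* only with no filter (adjusted p = 0.0699). *STAT3* passed there with normexp (0.84, adjusted p = 0.0268), in the deposited values (0.89, adjusted p = 0.0276), in 1 fit of all arrays (adjusted p = 0.0117) and with each array above background (adjusted p = 0.038), where *STAT6* passed too (adjusted p = 0.0465). Leaving out a horse moved *STAT5B* between -0.22 and 0.60 and *JAK3* between -0.53 and 0.62. The cause was not tested.

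Without the replicate block, 2 members passed (1809 gene names), with *SOCS3* at adjusted p = 0.00503 and *STAT4* at 0.0313, so that dropping the pairing changed no call.

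In the validation set 5 members passed, and 4 to 6 when single arrays were left out: *STAT6* was lost without horse 40 and *STAT5B* passed without horse 13 (0.38, adjusted p = 0.0256). *STAT5B* also passed in the deposited values and with both quantile normalizations (adjusted p = 0.0162 to 0.02). With scan day as a block 5 members passed, with *JAK3* in the place of *STAT6*. The difference between the sets gave 0 members under all 6 alternatives run. All 8 members were well above background on all 26 arrays.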
